A study of Homo sapiens with 4 samples.

Results

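The regions described here are 8 gene clusters that hold many genes of hepatocytes. These encode enzymes that oxidise or conjugate drugs, hormones and alcohol, and major proteins of blood plasma. Not every gene of the clusters is a liver gene. ADH5, NPFFR2, ADAMTS3, COX18 and ANKRD17 are described below as examples and not as a full list. Each cluster is a window on hg19 defined by its genome position, and together the windows span 4950 kb on chromosomes 2, 4, 7, 10 and 14. All 8 windows held peaks in both deposited lists. List 1 had 597 of its 326674 peaks on chromosomes 1 to 22 and X in these windows, and list 2 had 474 of its 264919. The study profiled H3K9me3 by chromatin immunoprecipitation and sequencing in U2OS, an established line from a human osteosarcoma, so the cells are of bone tumour and not of liver origin. Formaldehyde-fixed cells gave 4 samples, of which 2 were input with no antibody and 2 were precipitated with an Abcam antibody to H3K9me3. All 4 titles carry the name KRAB-IDR3-TCF3, which the labels do not explain, so no sample serves as an unmodified control. Input samples are labelled with list 1 and antibody samples with list 2, but the peak names in both lists read as immunoprecipitations. The lists were therefore given to no group, are not compared as input against antibody, and carry no replicate error. The number of reads behind them is unknown, and expression was not measured.

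H3K9me3 is a histone modification of constitutive heterochromatin. HP1 proteins bind it and help to compact the chromatin, and the series title concerns how its local density bears on contacts held by HP1a condensates. Outside repeats, it also marks blocks of genes that a cell type does not use. Hepatocyte genes are a common example of lineage-restricted genes, since factors such as HNF1, HNF4 and C/EBP switch them on in the liver while other tissues keep them off. Many of them arose by tandem duplication and still stand side by side, which makes each cluster a continuous region whose peak density can be set against the DNA on either side.

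By the median over the 8 clusters, the liver clusters were covered about as much as their surroundings, but they differed widely from one another. The covered share is the percentage of base pairs of a window that lie in a peak, and the flanks are the 1 Mb before and the 1 Mb after the window. In list 1 the clusters were covered from 15.4% to 70.7%, with a median of 50.05%. In list 2 they were covered from 6.46% to 50.6%, with a median of 27.8%. The weakest peak had a −log10 p of 1.02 in list 1 and 1.58 in list 2, so shares of the 2 lists rest on unlike limits. Windows of 400 kb tiled along the chromosomes had medians of 48.4% and 23.4%. The median ratio of cluster to flanks was 1.04 in list 1 and 1.03 in list 2, beside 1.01 and 0.979 over the 6827 tiled windows. A cluster was counted as less covered at a ratio of at most 0.8 and as more covered at 1.2 or above. In list 1, 2 of the 8 clusters were less covered, where 25.4% of all windows were, and 2 were more covered, where again 25.4% of all windows were. In list 2, 3 clusters were less covered (34.4% of all windows) and 3 were more covered (31.1% of all windows). The clusters themselves run from 100 to 1850 kb, and the share of windows past a limit varied with length. At the clusters' own lengths, 19.1% to 30.5% of windows were less covered in list 1 and 27.9% to 40.4% in list 2. More covered were 22.4% to 30.3% in list 1 and 28.7% to 33.8% in list 2. The counts of clusters are near the background and say nothing particular about liver genes as a set. With 1 value per cluster and list, no test could be made.

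**Figure D1:**
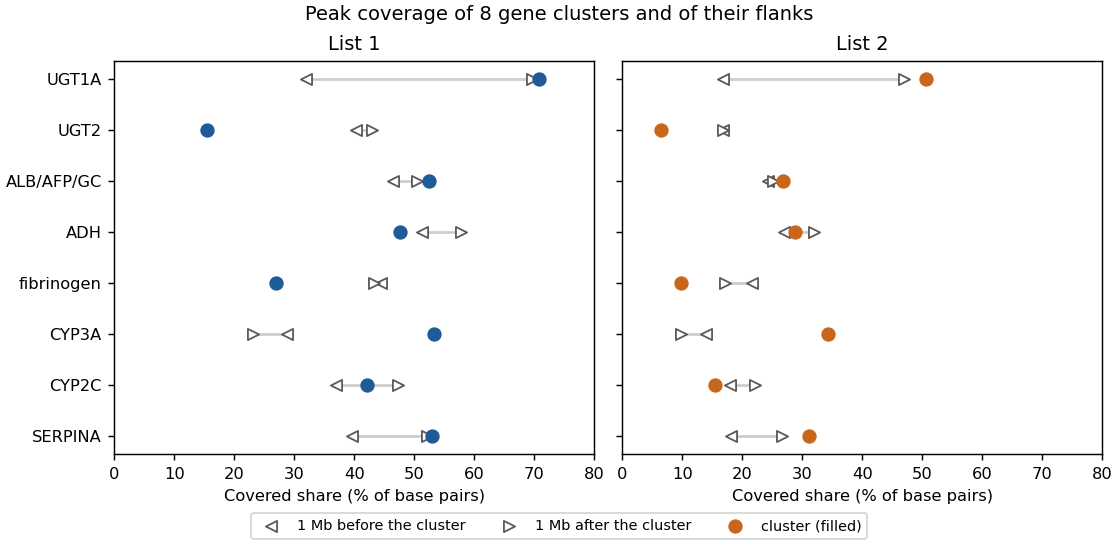
Covered share (x axis, percent of base pairs) of each of the 8 clusters (filled points) and of the 1 Mb before and after it (open triangles), for list 1 on the left and list 2 on the right. CYP3A lay to the right of both of its flanks, UGT2 and fibrinogen lay to the left of both, and UGT1A lay near the flank that follows it.

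The order of the clusters was nearly the same in both lists. UGT1A was covered most, followed by CYP3A and SERPINA, while CYP2C, fibrinogen and UGT2 were the 3 lowest in that order. ALB/AFP/GC and ADH exchanged ranks 4 and 5. By the ratio to flanks, CYP3A stood highest (2.05 in list 1 and 2.91 in list 2), UGT1A next (1.39 and 1.59) and SERPINA after it (1.16 and 1.39), and UGT2 stood lowest (0.370 and 0.386). Set among windows of its own length across the chromosomes, CYP3A had a higher ratio than 98.5% of 10939 windows of 250 kb in list 1 and 98.9% in list 2. The UGT2 ratio was higher than that of only 1.07% and 3.47% of 2249 windows of 1200 kb. The other 6 clusters lay between 19.8% and 86.9% on this scale. These percentiles describe the lists and are not tests, because neighbouring windows are not independent.

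**Figure D2:**
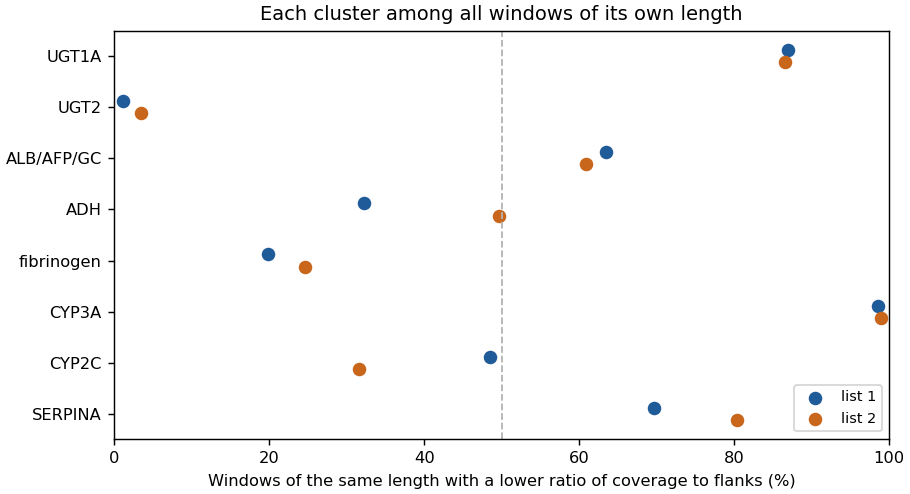
For each cluster (y axis), the share of all tiled windows of the same length whose ratio of coverage to flanks was lower (x axis, percent), in list 1 and list 2. CYP3A lay at 98.5% and 98.9% and UGT2 at 1.07% and 3.47%, while the other clusters lay from 19.8% to 86.9%.

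CYP3A was the cluster that stood out above its surroundings. Its genes, named along the chromosome as CYP3A5, CYP3A7, CYP3A4 and CYP3A43, encode cytochromes P450. CYP3A4 oxidises a large part of the drugs in clinical use, CYP3A7 is the form of the fetal liver, and CYP3A5 is present in only some adults. The window on chromosome 7 from 99250001 to 99500000 held 33 peaks in list 1 and 30 in list 2. It was covered 53.3% in list 1, against 28.8% before and 23.1% after it. In list 2 the share was 34.3%, against 13.9% and 9.75%. Both flanks were thus lower than the cluster in both lists. The surroundings were sparse for chromosome 7, which was covered 49.9% and 27.9% with long peak-free stretches taken out. The cluster itself was therefore close to the middle of its chromosome in list 1, above 53.3% of its 379 windows of 400 kb, and above 70.4% of them in list 2.

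Coverage at CYP3A was highest in the distal part of the window. The first 150 kb were covered 36.0% (list 1) and 12.1% (list 2), whereas the last 100 kb reached 79.3% and 67.7%. Against the pooled flanks, at 25.9% and 11.8%, the first part was thus higher in list 1 and close to them in list 2. This division was made after the bins had been seen. The fullest bin of 50 kb began at 99.45 Mb, at 87.7% and 79.0%, and the emptiest began at 99.3 Mb, at 33.1% and 7.08%. The widest peak of the cluster in list 1 ran from 99433648 to 99484576, or 50.9 kb, with a fold enrichment of 1.90. Fold enrichment is the authors' ratio of signal to the peak caller's background. The widest peak of list 2, from 99440152 to 99463446 (23.3 kb, fold 2.38), lay wholly within it. High coverage ran on past the border, since the next 100 kb were covered 52.6% and 37.3%, while the 100 kb before the window were covered 20.1% and 3.77%.

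The peaks of highest fold at CYP3A were narrow and lay elsewhere. In list 1 this was a peak of 422 bp starting at 99339273 (fold 2.10), with no partner in list 2. In list 2 it was a peak of 749 bp starting at 99406097 (fold 2.58). The longest peak-free stretch was 13.1 kb in list 1, from 99326156, and 23.4 kb in list 2, from 99355324. The median peak was wider in the cluster than in its flanks in list 1 (2169 against 1450 bp) and narrower in list 2 (929 against 1691 bp). In list 2 the 2 peaks of at least 10 kb held 48.4% of the covered length of the cluster, and its flanks had 0 such peaks. In list 1 the cluster had 1 and its flanks 9.

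UGT1A, the best covered cluster, stood at a step in peak density. Its 9 genes, from UGT1A8 to UGT1A1, are alternative starts that share their last exons. They encode UDP-glucuronosyltransferases, and UGT1A1 conjugates bilirubin for excretion. The window on chromosome 2 from 234500001 to 234700000 held 24 peaks in list 1 and 31 in list 2. It was covered 70.7% in list 1 and 50.6% in list 2. The 1 Mb before it was covered 31.9% and 16.8%, and the 1 Mb after it 69.6% and 47.0%. Against the DNA that follows, the ratio was 1.02 in list 1 and 1.08 in list 2, and against the DNA before it was 2.22 and 3.02. The ratio above 1.2 at UGT1A therefore rested on the side before the cluster.

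The step at UGT1A lay near the start of the window. The last bin of 50 kb before it was covered 29.1% and 10.4%. The 250 kb before it were covered 15.5% and 8.08%, and the 250 kb after it 73.5% and 60.6%. Inside, the first bin of 50 kb was the lowest in both lists, at 53.3% and 37.1%, and the last bin was the highest, at 90.7% and 75.3%. The widest peak of list 1 ran from 234666763 to 234712687 (45.9 kb, fold 2.10) across the end of the window, and 88.4% of it was covered in list 2. The widest of list 2 ran from 234589400 to 234609830 (20.4 kb, fold 2.52), of which list 1 covered 92.0%. The highest folds belonged to peaks of 748 bp at 234530932 in list 1 (fold 2.203) and of 406 bp at 234650907 in list 2 (fold 2.67). Stretches without a peak were short, at most 6.75 kb in list 1 (from 234524187) and 11.5 kb in list 2 (from 234618804).

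SERPINA had a milder rise of the same kind. The 9 genes are listed from SERPINA10 to SERPINA3. They include SERPINA1, the plasma inhibitor of neutrophil elastase, and SERPINA6, the carrier of cortisol in blood. The window on chromosome 14 from 94700001 to 95100000 held 51 and 42 peaks and was covered 52.9% in list 1 and 31.1% in list 2. The DNA before it was covered 39.6% and 18.1%, and the DNA after it 52.1% and 26.7%. Within the window the first 200 kb were covered 34.6% and 21.8%, and the last 200 kb 71.3% and 40.4%. The lowest bin was the first one in both lists (12.6% and 5.08%), and the highest began at 95 Mb in list 1 (79.5%) and at 95.05 Mb in list 2 (46.7%). The widest peaks overlapped there. That of list 1 spanned 95021344 to 95064339 (43.0 kb, fold 1.84), and that of list 2 spanned 95043592 to 95057472 (13.9 kb, fold 2.32). The highest folds were 1.93 in list 1, at 94907592, and 2.64 in list 2, at 94753298. The longest peak-free stretches inside the window were 19.9 kb and 22.9 kb, both in its first 100 kb.

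**Figure D3:**
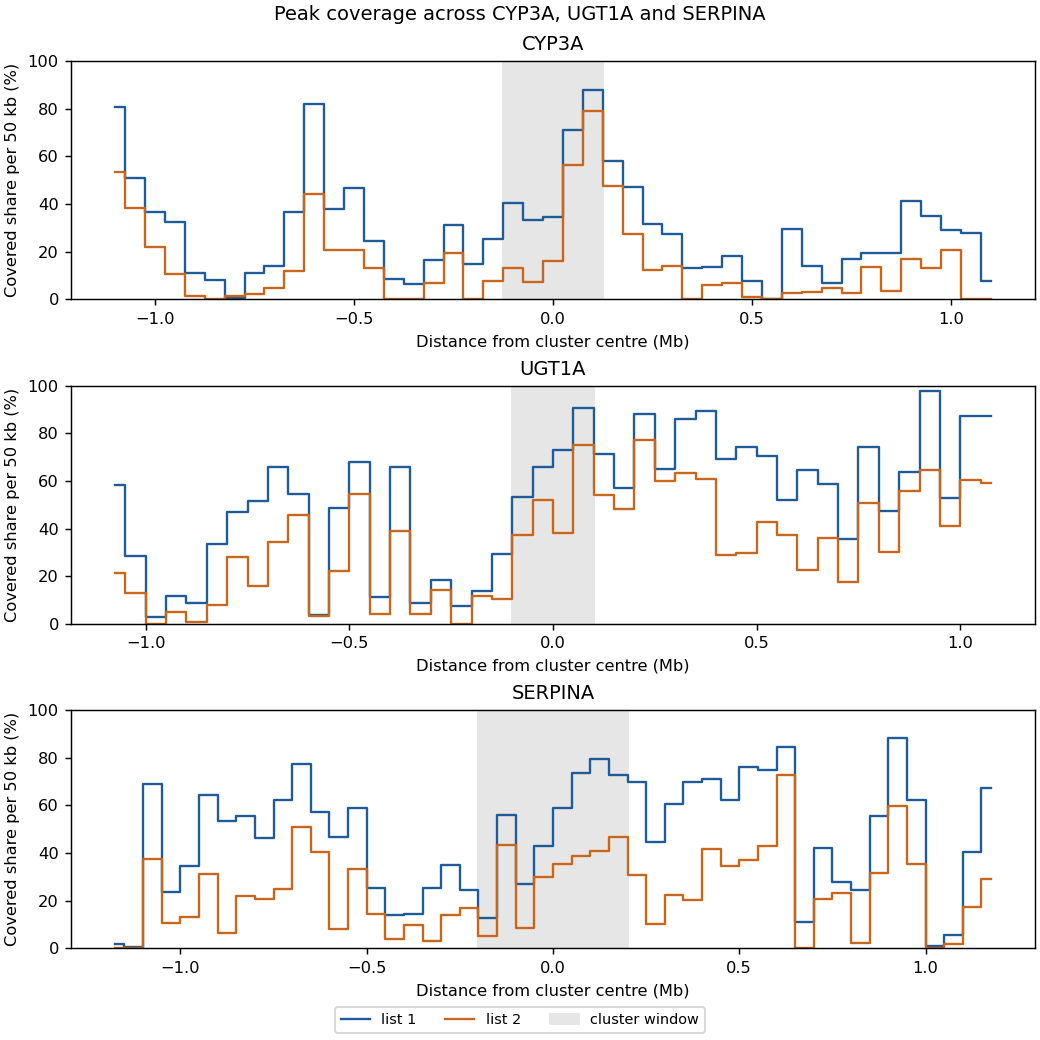
Covered share of 50 kb bins (y axis, percent) along CYP3A, UGT1A and SERPINA and the 1 Mb on either side (x axis, distance from the centre of the cluster in Mb), with the cluster window shaded and one line per list. Coverage at CYP3A peaked in the last 100 kb of the window (79.3% and 67.7%), whereas at UGT1A it rose at the start of the window and stayed high beyond its end.

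UGT2 was the least covered cluster, and most of its window held hardly any peak. Its 10 genes encode glucuronosyltransferases of steroids, bile acids and drugs, among them UGT2B7, which conjugates morphine, and UGT2B15 and UGT2B17, which inactivate androgens. The window on chromosome 4 from 69350001 to 70550000 was covered 15.4% in list 1, against 40.3% before and 42.9% after it. In list 2 it was covered 6.46%, against 16.7% and 16.8%. It held 79 and 45 peaks, or 6.58 and 3.75 per 100 kb, while its flanks held 13.4 and 9.60 per 100 kb. Of its 24 bins of 50 kb, 15 in list 1 and 17 in list 2 were covered less than 10%, and 9 and 11 held no covered base. The share of all bins under these limits was not counted. The median bin of the window was covered 4.82% and 0.696%, beside 44.5% and 15.7% for the 40 bins of its flanks. The lowest bins of the flanks also held 0% in both lists. Compared with 152 windows of 1200 kb on chromosome 4, the UGT2 window was below all of them in list 1 and above 0.658% of them in list 2.

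The coverage of UGT2 fell into 4 segments, divided after the bins had been seen. From 69.35 to 69.85 Mb, 1.19% was covered in list 1 and 0.0656% in list 2. From 69.85 to 70 Mb, where both lists had an island of peaks, the shares were 23.1% and 12.7%. From 70 to 70.3 Mb they were 4.66% and 0.906%. The last 250 kb, from 70.3 Mb on, were covered 52.0% and 22.2%, which is above the 42.9% and 16.8% of the flank that follows. The fullest bin began at 70.45 Mb in list 1 (62.5%) and at 70.35 Mb in list 2 (34.4%), both in this last segment.

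The emptiest segment began before the window and had sharp ends at nearly the same positions in both lists. The last peak before it ended at 69170096 in list 1 and 69164383 in list 2, and the 500 kb before that point were covered 57.5% and 25.7%. Peaks resumed after 69889392 in list 1 and 69890723 in list 2. Between these limits 0.829% of 719 kb was covered in list 1 and 0.0452% of 726 kb in list 2. The longest stretch inside the window without any peak measured 400.3 kb in list 1, from 69489073, and 293 kb in list 2, from 69597843. In list 2 a longer one, of 433 kb, began before the window. On chromosome 4 only 2 of 25692 stretches between neighbouring peaks were at least as long in list 1, this one included, and 6 of 18971 in list 2. The assembly hg19 also holds an alternate haplotype contig for part of the UGT2 region, stated here from general knowledge, and neither list had a peak on it (0 and 0). All haplotype contigs together held 0 peaks in list 1 and 1 in list 2. The sources used here do not say how reads that match both copies were treated. Whether such reads are missing from the empty segment, and what part this contig has in it, was not tested.

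Outside the empty segment UGT2 was still covered less than its surroundings, but less far. With the segment taken out of the window and of the flank, the remaining 661 kb of list 1 were covered 27.05%, against 50.4% before and 42.9% after, a ratio of 0.580. The remaining 659 kb of list 2 were covered 11.7%, against 22.3% and 16.8%, a ratio of 0.599. Among 4182 windows of 650 kb, 7.87% in list 1 and 16.8% in list 2 had a lower ratio, so the rank of the cluster was less extreme without the segment. In the whole window, 29.8% of the covered length of list 1 was also covered in list 2, close to the 32.5% of the flanks. List 2 covered 6.46% of the window and 16.7% of its flanks.

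The peaks of highest fold and lowest q-value at UGT2 lay in its covered end. The highest fold of list 1 was 2.26, for the peak from 70439248 to 70443105. The highest of list 2 was 3.16, for the peak from 70521507 to 70524637, which also had the highest fold among all peaks of the 8 clusters. A q-value under 0.05 was reached by 3 of the 474 peaks of list 2 in all clusters and by 0 of the 597 of list 1. Both the peak at 70521507 (q = 0.0207) and one at 70440464 (fold 2.996, q = 0.0326) belonged to UGT2, and the other lay in ALB/AFP/GC at 72983027 (fold 3.06, q = 0.0300). The share of all peaks of each list under this q-value was not counted, so these numbers are not read as particular to the clusters. The widest peaks of UGT2 were 15.9 kb in list 1, from 70485587, and 7.15 kb in list 2, from 69942759.

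**Figure D4:**
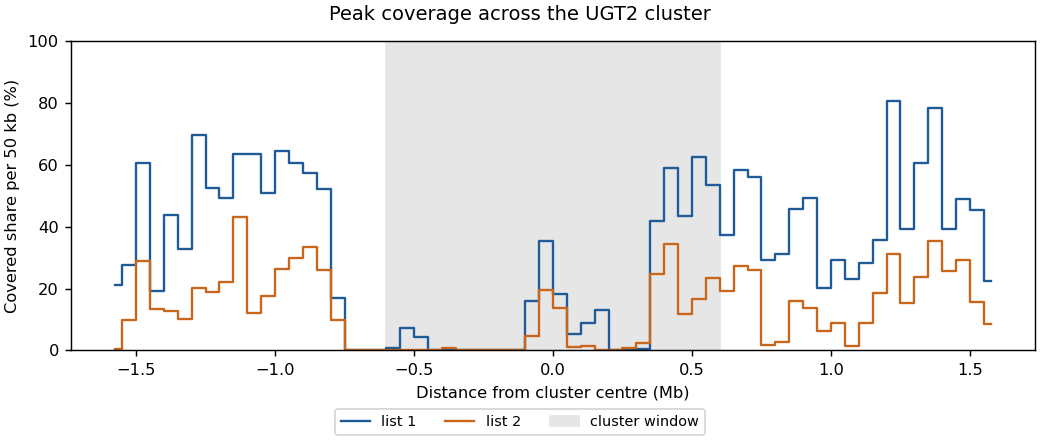
Covered share of 50 kb bins (y axis, percent) along the UGT2 cluster (shaded) and the 1 Mb on either side (x axis, distance from the centre in Mb), one line per list. Coverage was near 0 from before the window to about its middle in both lists, rose in a small island, and reached 52.0% and 22.2% in the last 250 kb of the window.

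Fibrinogen, a short cluster on the same chromosome, was also covered less than both of its flanks. FGB, FGA and FGG encode the chains of fibrinogen, which thrombin converts into the fibrin of a clot. The window from 155450001 to 155550000 held only 8 peaks in list 1 and 7 in list 2. It was covered 26.98% in list 1, against 44.4% before and 43.3% after, a ratio of 0.615. In list 2 it was covered 9.81%, against 21.6% and 17.1%, a ratio of 0.507. Among windows of 100 kb, 19.8% and 24.6% had a lower ratio, so values of this size were common at this length. When only peaks of list 1 that reach the lowest −log10 p in list 2 were kept, the ratio turned to 1.96.

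The fibrinogen window was nearly bare at its start. Its first 50 kb were covered 10.4% and 1.37%, and the remaining 50 kb 43.5% and 18.2%. A stretch without peaks spanned 155449278 to 155486579 in list 1, and in list 2 it spanned 155445336 to 155491694. In each list a single peak was both the widest and the highest of the cluster. In list 1 it spanned 155499304 to 155509248 (9.95 kb, fold 1.97). In list 2 it spanned 155504325 to 155507330 (3.01 kb, fold 2.61), inside the peak of list 1.

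ALB/AFP/GC, the longest window, was covered slightly more than its flanks. ALB encodes albumin, the most abundant plasma protein. AFP encodes its fetal counterpart alpha-fetoprotein, AFM the vitamin E carrier afamin, and GC the vitamin D binding protein. GC stands apart from the other 3 genes, and NPFFR2, ADAMTS3, COX18 and ANKRD17, which are not known as liver plasma proteins, lie between them. The window on chromosome 4 from 72550001 to 74400000 held 248 and 218 peaks. It was covered 52.5% in list 1, against 46.4% before and 50.4% after, and 26.8% in list 2, against 24.3% and 25.1%. The ratio was 1.09 in both lists, below the limit for a more covered cluster. It fell to 0.840 and 0.842 with flanks of 0.5 Mb, so its side of 1 depended on the length of the flanks.

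Peaks in the ALB/AFP/GC window alternated between dense and sparse stretches. The first 600 kb were covered 61.4% and 32.5%, the 550 kb from 73.35 Mb 60.6% and 33.1%, and the last 250 kb 64.4% and 32.1%. Between them, the 200 kb from 73.15 Mb were covered 25.1% and 4.74%, and the 250 kb from 73.9 Mb 23.4% and 11.7%. The emptiest bin began at 73.95 Mb, at 1.60% and 0%, a share that list 2 also had in the bin from 73.25 Mb, and the longest peak-free stretches lay around it, 38.8 kb from 73944572 in list 1 and 121 kb from 73910151 in list 2. The fullest bin began at 72.7 Mb in list 1 (79.7%) and at 73.8 Mb in list 2 (54.0%). The widest peaks were 27.2 kb in list 1 (from 74138214) and 10.6 kb in list 2 (from 74143260, within that of list 1). The highest fold of list 1 was 2.198, at 73838060, and that of list 2 was 3.06, at 72983027.

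ADH and CYP2C were close to their flanks in list 1, and only CYP2C passed a limit in list 2. The ADH genes, from ADH5 to ADH7, encode alcohol dehydrogenases. ADH1A, ADH1B and ADH1C oxidise ethanol in the liver, whereas ADH5 acts on formaldehyde adducts in nearly all cells. The ADH window on chromosome 4 from 99950001 to 100400000 held 72 and 50 peaks and was covered 47.6% in list 1, against 51.3% before and 57.8% after. In list 2 it was covered 28.8%, against 26.9% and 31.997%. The ratio was 0.872 in list 1 and 0.978 in list 2.

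Coverage within ADH was low at its start and higher after it. The first 100 kb were covered 32.3% and 7.64%, and the other 350 kb 51.9% and 34.8%. The lowest bin began at 100 Mb (25.5% and 1.86%), and the longest peak-free stretch of list 2 reached into it, spanning 48.5 kb from 99982500. That of list 1 was 13.8 kb, from 100324263. The fullest bins were the last one in list 1 (59.7%) and the one from 100.25 Mb in list 2 (44.8%). The widest peaks measured 13.2 kb at 100293346 in list 1 and 14.4 kb at 100080156 in list 2. The highest folds were 2.53 at 100369263 in list 1 and 2.69 at 99954730 in list 2.

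The CYP2C genes encode cytochromes P450 that act in drug metabolism. Their window on chromosome 10 from 96400001 to 96900000 held 82 and 51 peaks. It was covered 42.1% in list 1, equal to its flanks at a ratio of 1.00 (36.9% before and 47.2% after). Its side of 1 depended on the setting, since it was 1.24 with flanks of 0.5 Mb and 0.321 with list 1 limited to the lowest −log10 p in list 2. In list 2 it was covered 15.5%, against 17.9% and 22.2%, a ratio of 0.772. That ratio was 1.07 with flanks of 0.5 Mb. The 500 kb before the cluster were covered 8.17%, well below the 17.9% of the full 1 Mb. The 500 kb after it were covered 20.8%, near the 22.2% of the full 1 Mb and above the cluster. Chromosome 10 is densely covered, at 56.7% and 36.7%, and CYP2C lay above only 25.7% and 17.6% of its 319 windows of 400 kb.

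The middle of the CYP2C window was lower than its ends. The 300 kb from 96.5 Mb were covered 33.06% and 11.997%, the first 100 kb 56.6% and 20.7%, and the last 100 kb 54.5% and 20.7%. The fullest bin began at 96.8 Mb in list 1 (69.7%) and at 96.4 Mb in list 2 (32.02%), and the emptiest at 96.6 Mb (20.4%) and 96.65 Mb (6.94%). Peaks were small in list 2, the widest measuring 3.91 kb at 96560730, while the widest of list 1 was 26.2 kb at 96814772. The highest folds were 2.27 for a peak of 297 bp at 96566920 in list 1 and 2.73 at 96748777 in list 2. The longest peak-free stretches were 17.3 kb (from 96594446) and 26.0 kb (from 96640677). Of all 8 clusters, CYP2C had the smallest share of its list 1 coverage in common with list 2, 26.4%, against 41.6% in its flanks. UGT1A had the largest, 66.0% against 58.1%. This share can rise with the coverage of list 2, which was 15.5% at CYP2C and 50.6% at UGT1A. The order therefore does not measure agreement between the lists alone.

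**Figure D5:**
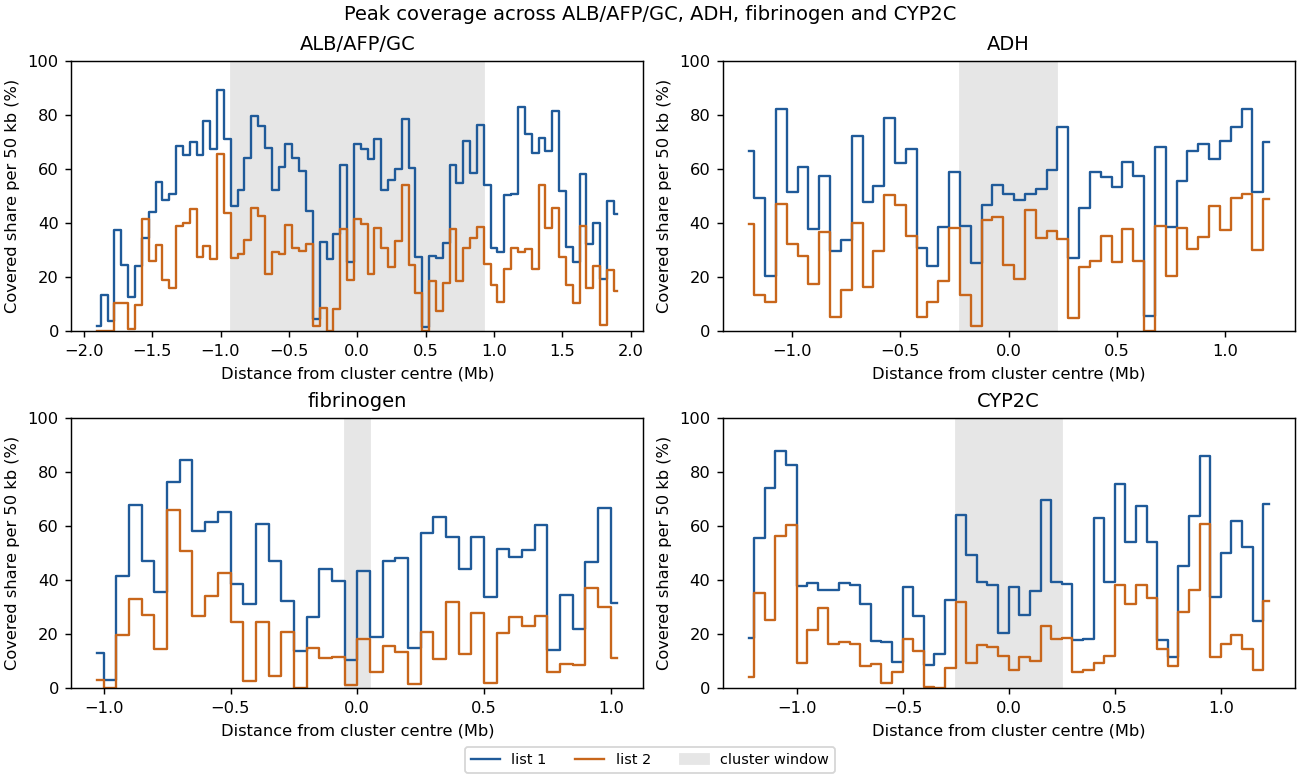
Covered share of 50 kb bins (y axis, percent) along ALB/AFP/GC, ADH, fibrinogen and CYP2C (shaded) and the 1 Mb on either side (x axis, distance from the centre in Mb), one line per list. Dips to 1.60% and 0% interrupted the ALB/AFP/GC window, and the first 50 kb of fibrinogen were covered 10.4% and 1.37%.

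Enrichment per peak was low in every cluster and close to that of the flanks. The median fold of a cluster ranged from 1.55 (fibrinogen) to 1.78 (UGT1A) in list 1, where the median of the whole list was 1.64. The same 2 clusters marked the ends of the range of list 2, at 1.99 and 2.22, where the whole list had 2.12. The highest fold in any cluster was 2.53 in list 1 and 3.16 in list 2. At CYP3A the median fold was 1.74 against 1.61 in the flanks in list 1, but 2.11 against 2.19 in list 2. The lowest fold of any peak was 1.44 in list 1 and 1.90 in list 2, so a median could only lie above these values. Signal too weak to be called a peak counts as uncovered. The narrow range of fold therefore does not show that the clusters differed in covered length alone. Copy number, which is uneven in U2OS, and how much of each window can be read uniquely were not measured here.

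The gene families can be described by the letters of their promoters, which the window positions did not use. The RefSeq tables, on GRCh38.p14, gave 50 protein-coding genes for the 8 families, and 43 of them had at least 1 promoter entry of 300 bases, 50 entries in all. These coordinates do not belong to hg19, so no promoter was placed under a peak. CpG pairs were few. The median was 2 per entry, beside 14 over 35116 entries of all genes, and 43 of the 50 entries had at most 5, as did 33.7% of all. The median GC content was 41.8% beside 58.7%. The letters GTTAAT, the core of the HNF1 motif, stood on either strand in 19 of 50 entries (38%, beside 6.88% of all), and TATAAA, the TATA box, in 14 (28%, beside 11.5%). The entries were not matched on GC content, and a match of letters does not show binding. ADH5, the broadly expressed member, had the most CpG pairs, 29 in its 300 bases, and the next highest entry, one of SERPINA1, had 12. The 250 bases before the start of 3 genes are shown to let this contrast be seen, 5′ to 3′ on the strand of the gene, with CpG pairs in capitals. ALB on chromosome 4 had 3 of them, CYP3A4 on chromosome 7 had 0 and ADH5 on chromosome 4 had 21.
ALB: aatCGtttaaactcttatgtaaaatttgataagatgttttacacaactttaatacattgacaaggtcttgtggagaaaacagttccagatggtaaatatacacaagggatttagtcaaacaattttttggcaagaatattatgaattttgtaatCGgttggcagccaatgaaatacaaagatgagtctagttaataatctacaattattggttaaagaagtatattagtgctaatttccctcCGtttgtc
CYP3A4: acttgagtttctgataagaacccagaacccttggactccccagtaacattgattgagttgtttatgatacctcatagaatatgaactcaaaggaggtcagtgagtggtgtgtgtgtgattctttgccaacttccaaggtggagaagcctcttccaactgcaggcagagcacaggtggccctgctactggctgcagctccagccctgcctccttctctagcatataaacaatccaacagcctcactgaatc
ADH5: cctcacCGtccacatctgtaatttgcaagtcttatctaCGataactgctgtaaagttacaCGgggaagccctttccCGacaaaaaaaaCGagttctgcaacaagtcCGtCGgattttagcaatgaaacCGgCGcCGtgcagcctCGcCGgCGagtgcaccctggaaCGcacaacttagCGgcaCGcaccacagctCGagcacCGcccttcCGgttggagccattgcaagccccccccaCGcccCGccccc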

How the data were processed

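The 2 deposited broad peak lists, without headers, cover hg19. The submitters' processing notes name MACS2 2.2.7.1, Bowtie2 2.5.0, bcl2fastq 2.17 and Trim Galore 0.6.7, with no settings. Cutoff, control, duplicate handling and pooling: not given in the sources used here. Fold enrichment, a ratio, and −log10 p and −log10 q per peak are the authors' deposited values. From them were computed covered shares of the cluster windows, of the 1 Mb on either side and of 50 kb bins, and ratios of cluster to flanks. An overlap needed 1 bp. Background windows of 400 kb were left out where they or their flanks touched a stretch of at least 1 Mb free of peaks in both lists. Among the alternatives, a ratio was counted as unmoved within 1.2 times its value. The coverage functions were tested on simulated data. No test between groups was made, since the labels give no list to 1 sample.

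The members and lists were chosen with earlier results of these data known. Within each cluster the text names the widest peak, the peak of highest fold, the longest peak-free stretch and the fullest and emptiest bins. No gene was placed on hg19, because the gene table is on another build. RefSeq gave gene names, their order and promoters. Coordinates are 1-based. Scripts ran under Python 3.11.15 with pandas 2.3.3, numpy 2.4.6 and matplotlib 3.10.9.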

Additional observations from a re-analysis of the deposited data

How the results depend on the processing

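Of 172 recomputed ratios of cluster to flanks, 140 stayed within 1.2 times their value, 30 moved further and 2 crossed 1 from beyond a limit. These were fibrinogen in list 1, at 1.96 when only its peaks reaching the lowest −log10 p in list 2 were kept, and CYP2C in list 2, at 1.07 with flanks of 0.5 Mb. In list 1 CYP3A ranged from 1.82 to 2.92 and UGT2 from 0.273 to 0.580. In list 2 the ranges were 2.47 to 3.52 and 0.288 to 0.599. The number of more covered clusters in list 1, 2 in the report, was 4 with that limit on p (33.5% of all windows). It was 1 against the 1 Mb after the cluster only, 1 with limits of 0.7 and 1.5 (7.66% of windows), and otherwise 2 or 3. In list 2, 3 in the report, it was 1 against the 1 Mb after only. It was 4 with cluster windows 10% longer at each end (31.1% of 400 kb windows), 2 with limits of 0.7 and 1.5 (15.0%), and otherwise 3. The number of less covered clusters was 2 or 3 under each alternative in both lists. Where background windows were computed, 17.6% to 43.1% of them were less covered in list 1 and 26.6% to 42.8% in list 2. Flanks on 1 side, windows of the clusters' own length and both UGT2 windows without empty parts were chosen once the data had been seen. No paired analysis was possible because neither list belongs to 1 sample. The depth is unknown, so no interval could be given.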
